A study of Mus musculus with 89 samples.

Results

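The transcriptional response of mouse embryonic stem (ES) cells to the combined loss of 2 orphan nuclear receptors, Esrrb and Nr5a2, was compared between serum with LIF (FCS/LIF) and the serum-free medium 2i/LIF. The comparison used the 10 RNA-seq libraries of cells with both receptors (+E+N) or with neither (−E−N), out of 20 RNA-seq libraries and 89 samples in the series. FCS/LIF had 2 +E+N and 2 −E−N libraries, and 2i/LIF had 3 of each. All of these cells descend from EKOiE, a line in which the endogenous Esrrb genes are knocked out and an Esrrb transgene is switched on by doxycycline (Dox). The +E+N libraries came from EKOiE cells kept in 1 µg/ml Dox. The −E−N libraries came from EKOiE NrKO cells, a derived line with exon 4 of both Nr5a2 alleles disrupted, grown without Dox for 2 days. The control cells therefore carry the Esrrb knockout as well, Nr5a2 loss and the derivation of the NrKO line cannot be told apart, and neither can medium and the cultures and libraries made in it. The study describes replicates as independent experiments.

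FCS/LIF leaves the Erk pathway active downstream of Fgf4 and holds ES cells in a mixture of states close to the pre-implantation epiblast. In 2i/LIF, PD0325901 blocks Mek and CHIR99021 blocks Gsk3, so that Erk signalling is low, β-catenin is stabilised and the naive state is uniform. Esrrb and Nr5a2 bind related DNA motifs as monomers, and Esrrb is a target of the Gsk3 and β-catenin axis as well as a central factor of the naive network. LIF acts through Stat3, whose known targets include Klf4, Tfcp2l1 and Gbx2.

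The libraries held 36514172 to 42980094 gene counts in FCS/LIF and 27330885 to 32526534 in 2i/LIF. Replicates of a group were less alike than counting error alone would leave them. Their chi-square divided by its degrees of freedom was 5.49 to 18.3, except that 2i/LIF −E−N replicate 3 stood apart from the 2 libraries of its group at 28.5 and 22.9. Levels are given below as depth-normalised counts (CPM) after TMM scaling, and responses as log2 fold changes of −E−N over +E+N with their standard error (SE). The difference between media is the FCS/LIF response minus the 2i/LIF response, tested with edgeR's quasi-likelihood test as 1 contrast and called at a Benjamini-Hochberg adjusted p below 0.01. A response within 1 medium was called at the same limit when it also exceeded 1.5-fold.

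Esrrb (ENSMUSG00000021255, chr12:86361117-86521628 on GRCm38) fell in both media, and by more in FCS/LIF. Its level was 271 and 353 CPM in FCS/LIF +E+N and 31.3 and 28.9 in −E−N, against 515, 609 and 605 and 171, 161 and 104 in 2i/LIF. The log2 responses were −3.37 ± 0.21 in FCS/LIF and −1.99 ± 0.16 under 2i/LIF, a difference of −1.39 ± 0.25 (edgeR adjusted p = 0.000636), so −E−N cells kept more Esrrb transcript in 2i/LIF than in FCS/LIF. On the log2(TPM + 1) scale with limma the difference was −0.97 and was not called (adjusted p = 0.0464), nor was it on the log2(TPM + 0.1) scale (−1.01, adjusted p = 0.0435). Nr5a2 (ENSMUSG00000026398, chr1:136842571-136960448) went from 39.9 and 36.1 to 10.3 and 9.18 CPM in FCS/LIF and from 80.2, 70.6 and 61.8 to 46.1, 34.4 and 20.9 in 2i/LIF. The difference of −0.90 ± 0.30 was not called (adjusted p = 0.0389). The deposited counts do not separate transgenic from disrupted endogenous Esrrb transcripts, and transcripts of the disrupted Nr5a2 alleles are counted too. Among the 2i/LIF −E−N libraries, replicate 3 had the lowest counts of both genes. The part of these unequal transcript levels in the differences described below was not tested.

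Of 16147 genes tested, 2307 responded in FCS/LIF (14.3%; 1470 rose, 9.10%, and 837 fell, 5.18%) and 3228 in 2i/LIF (20.0%; 1648 rose, 10.2%, and 1580 fell, 9.79%). The response was called in both media for 1070 genes, which is 46.4% of the FCS/LIF list and 33.1% of the 2i/LIF list, and 971 of these moved in the same direction. The difference between media itself was called for 2136 genes (13.2%), with a positive value for 1178 (7.30%) and a negative one for 958 (5.93%). Of the 1237 genes called in FCS/LIF alone, 463 had a called difference between media, as did 815 of the 2158 called in 2i/LIF alone, so that most genes called in 1 medium alone had no called difference. Across all genes the FCS/LIF response had a median of 0.016, the 2i/LIF response had 0.0088 and the median difference was −0.0067. Without FCS/LIF −E−N replicate 2 or FCS/LIF +E+N replicate 1, 1228 and 1291 genes responded in FCS/LIF. Leaving out any 1 of the 4 FCS/LIF libraries lowered the number of called differences to between 1223 and 1369. Leaving out any 1 of the 2i/LIF libraries gave 1678 to 2185.

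The 2136 genes were sorted by their responses, requiring for a response in 1 medium only that the 95% interval of the other response stayed within 1.5-fold in both directions. By this rule 277 genes responded in FCS/LIF only (172 rose and 105 fell) and 239 in 2i/LIF only (83 rose and 156 fell). A further 99 responded in opposite directions, 75 of them up in FCS/LIF and down in 2i/LIF. Another 140 moved in the same direction by unequal amounts. The response in the other medium was not bounded for 576 genes called in 2i/LIF and 186 called in FCS/LIF. FCS/LIF had 2 libraries a group and 2i/LIF had 3, and the part of this in the gap was not tested. The remaining 619 were called in neither medium. Without FCS/LIF −E−N replicate 2 there were 163 genes in FCS/LIF only, 122 in 2i/LIF only, 46 opposite and 69 in the same direction. Without FCS/LIF +E+N replicate 1 the counts were 181, 140, 47 and 65. The 2i/LIF only and same direction counts also fell, to 122 and 74, without FCS/LIF −E−N replicate 1 and to 124 and 79 without FCS/LIF +E+N replicate 2. These classes use the responses themselves, so the values of their members below are a description.

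**Figure D1:**
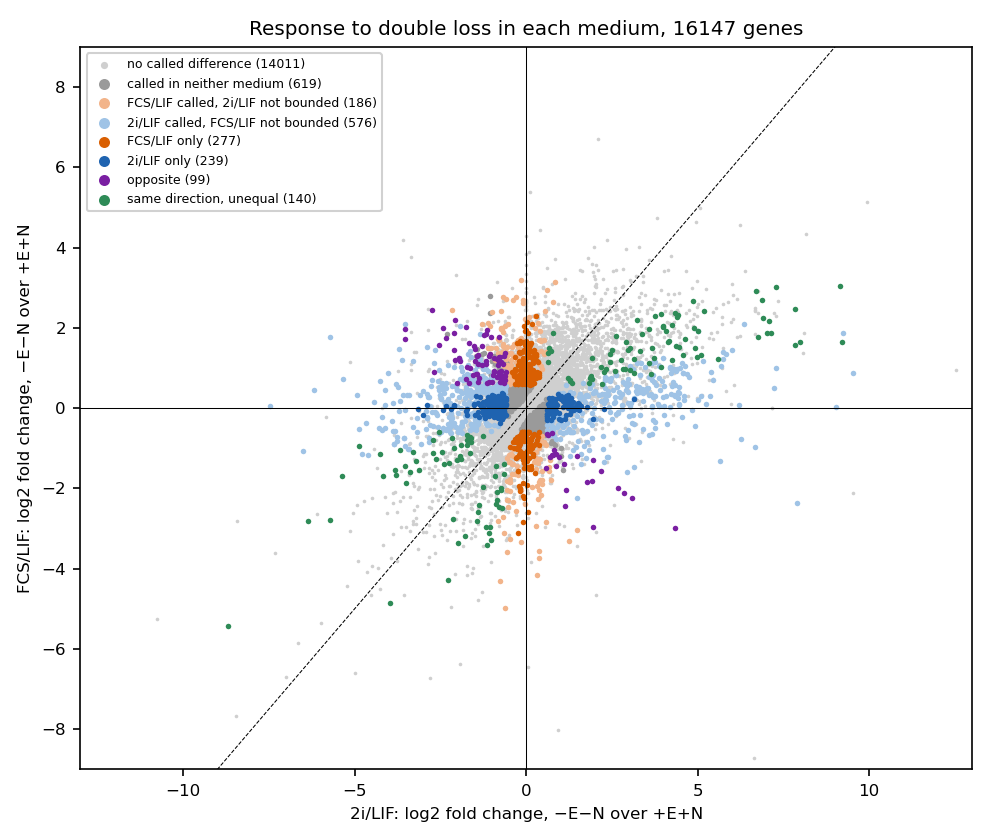
Each point is 1 of 16147 genes, with the log2 fold change of −E−N over +E+N in 2i/LIF on the x axis and in FCS/LIF on the y axis, coloured by class with the number of genes in brackets. Points on the dashed diagonal respond equally. The 277 FCS/LIF only genes lie along the vertical axis, the 239 2i/LIF only genes along the horizontal axis and the 99 opposite genes in the upper left and lower right.

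Klf2 (chr8:72319033-72321656), a Krüppel-like factor of the naive network, fell in FCS/LIF only. Its level dropped from 136 and 122 CPM to 27.7 and 29.1 in FCS/LIF, while in 2i/LIF it was 268, 318 and 284 before and 286, 304 and 224 after. The 2i/LIF groups overlapped and the FCS/LIF groups did not. The responses were −2.19 ± 0.14 and −0.10 ± 0.11, with a difference of −2.09 ± 0.18 (edgeR adjusted p = 7.48e-07). Gabbr1, a subunit of the GABA-B receptor, showed the same pattern, from 42.9 and 47.2 to 11.02 and 12.7 CPM in FCS/LIF against 57.8, 70.7 and 63.96 and 58.4, 70.7 and 67.3 in 2i/LIF. The metalloprotease gene Mep1b fell by 2.23 on the log2 scale in FCS/LIF with a 2i/LIF response of −0.054 ± 0.20. Zfp264, annotated as a transcribed pseudogene, whose reads may be shared with related zinc finger genes, had responses of −2.00 ± 0.29 and −0.19 ± 0.15 but was low in FCS/LIF throughout (1.65 and 2.43 CPM in +E+N) and about as abundant in both 2i/LIF states (29.2, 32.7 and 36.9 CPM in +E+N). With limma on log2(TPM + 1) its difference was −0.45 and was not called (adjusted p = 0.169). Tsix, the antisense partner of Xist, had responses of −1.86 ± 0.21 and −0.092 ± 0.17. Whether the counting used strand is not stated, so reads of Tsix and Xist may not be separated.

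Cyr61, which encodes a secreted matrix protein, rose in FCS/LIF only. It went from 35.5 and 33.5 to 160.5 and 176 CPM in FCS/LIF and stayed between 7.51 and 12.7 CPM in all 6 libraries in 2i/LIF. Its difference between media was 2.01 ± 0.19 (edgeR adjusted p = 2.53e-06). Tead3, a Tead family factor, rose by 1.91 in FCS/LIF, from 12.1 and 12.4 to 44.2 and 47.8 CPM, with a 2i/LIF response of −0.048 ± 0.17. Nes, the intermediate filament of neural progenitors, had 38.02 and 39.00 CPM before and 162 and 164 after in FCS/LIF, and 33.9, 40.6 and 36.1 before and 52.01, 40.2 and 31.9 after in 2i/LIF. Before the loss its level had no called difference between media (log2 0.064, adjusted p = 0.756), and after it FCS/LIF was higher by 1.98. Large differences were also seen for Msx2, a homeobox gene induced by Bmp (2.15 ± 0.29 in FCS/LIF, 0.011 ± 0.24 in 2i/LIF), the Ets factor Elf4 (2.04 ± 0.25 and −0.067 ± 0.18) and the acid phosphatase gene Acpp (1.94 ± 0.26 and −0.0089 ± 0.22). The FCS/LIF rise of Elf4 took it from 3.69 and 3.88 to 11.9 and 19.2 CPM, still below the 21.8, 31.1 and 37.9 CPM of 2i/LIF −E−N.

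Gbx2 (chr1:89927956-89931179), a homeobox factor of the LIF and Stat3 axis, rose in 2i/LIF only. It had 51.5, 42.8 and 44.7 CPM in 2i/LIF +E+N and 166, 182 and 184 in −E−N. In FCS/LIF the values were 20.7 and 21.9 before and 18.6 and 16.7 after. Its responses were 1.93 ± 0.10 (2i/LIF) and −0.27 ± 0.12 (FCS/LIF), a difference of −2.21 ± 0.16 (edgeR adjusted p = 1.51e-07), so a medium that already held more Gbx2 in +E+N gained more of it. Klhl13, an X-linked adaptor of the Cul3 ubiquitin ligase, moved the other way relative to its starting levels. It was at 856 and 810.0 CPM in FCS/LIF +E+N and 797 and 851 in −E−N, and rose from 55.4, 49.7 and 45.2 to 275, 208 and 240.5 CPM in 2i/LIF, a level that remained below that of FCS/LIF. Mbp, the myelin basic protein gene, rose from 6.81, 6.76 and 6.17 to 56.5, 57.7 and 61.4 CPM in 2i/LIF and was at 8.63 to 10.9 CPM in all FCS/LIF libraries. Naprt, an enzyme of NAD synthesis, and Lrp8os2, a transcript from the strand opposite Lrp8, rose by 1.54 and 1.76 in 2i/LIF with FCS/LIF responses of −0.054 ± 0.24 and 0.018 ± 0.22. The difference for Naprt was not called without FCS/LIF −E−N replicate 2 (adjusted p = 0.012).

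Genes that fell in 2i/LIF only were more numerous than those that rose. Rap1gap, which switches off the GTPase Rap1, went from 35.6, 33.7 and 33.3 CPM to 4.27, 3.89 and 4.46 in 2i/LIF and was at 12.9 and 12.6 before and 10.97 and 11.4 after in FCS/LIF. Because 2i/LIF started higher and ended lower, the medium difference changed sign, from −1.43 in +E+N (adjusted p = 5.23e-08) to 1.41 in −E−N (adjusted p = 7.46e-08). Nid1, a basement membrane protein gene, fell from 288, 289 and 254 to 59.9, 53.8 and 51.3 CPM in 2i/LIF. This was from above to below the range of the 4 FCS/LIF libraries (72.7 to 93.1 CPM). Nxpe3 and Ccdc92b fell by 2.90 and 3.16 on the log2 scale in 2i/LIF, with FCS/LIF responses of 0.079 ± 0.23 and −0.014 ± 0.23. Kcnh7, a potassium channel gene, had responses of −2.42 ± 0.17 and −0.056 ± 0.19. Smad7, the feedback inhibitor of Tgfβ and Bmp receptors, fell from 53.3, 64.2 and 58.3 to 21.96, 26.2 and 19.2 CPM in 2i/LIF and was at 51.5 to 57.4 CPM in all FCS/LIF libraries.

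Responses in opposite directions reached their largest size in Slco2a1, a prostaglandin transporter gene (chr9:102988712-103096002). It rose from 2.98 and 3.81 to 9.70 and 12.7 CPM in FCS/LIF and fell from 5.88, 4.79 and 8.54 to 0.427, 0.389 and 0.812 in 2i/LIF. Neither pair of groups overlapped, and the difference was 5.27 ± 0.56 (edgeR adjusted p = 6.87e-06). Pim1, a kinase gene induced by LIF and Stat3, had the smallest adjusted p of the opposite genes described here (4.91e-08). Its level rose from 72.02 and 61.96 to 115 and 106 CPM in FCS/LIF and fell from 128, 119.9 and 112 to 35.8, 41.1 and 29.9 in 2i/LIF, which reversed the order of the media. Hbegf, a ligand of the EGF receptor, went from 4.55 and 4.59 to 11.7 and 16.5 CPM in FCS/LIF and from 11.3, 9.48 and 11.6 to 3.19, 3.00 and 3.96 in 2i/LIF. The same pattern held for Caskin1, a synaptic scaffold gene (1.58 ± 0.33 in FCS/LIF and −2.56 ± 0.30 in 2i/LIF), for Spats2l (2.02 ± 0.36 and −1.77 ± 0.33) and for the actin bundling gene Lcp1 (1.45 ± 0.24 and −2.11 ± 0.23). Sparc, a secreted collagen-binding protein, went from 140.2 and 157 to 239.7 and 284 CPM in FCS/LIF and from 226, 191 and 162 to 68.7, 71.4 and 57.8 in 2i/LIF, and Itga5, the fibronectin receptor subunit, had responses of 0.74 ± 0.15 and −1.37 ± 0.13. The summed level of fibroblast markers, given with the lineage lists, also rose by more in FCS/LIF, and its part in these values was not tested. Eomes, a T-box factor of the primitive streak and trophoblast, had responses of 1.24 ± 0.32 and −1.95 ± 0.27 at levels below 12 CPM in every library.

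The 24 genes that fell in FCS/LIF and rose in 2i/LIF were led by Enox1, which went from 50.3 and 52.3 to 6.94 and 6.28 CPM in FCS/LIF and from 0.642, 1.08 and 1.64 to 4.67, 6.25 and 2.10 in 2i/LIF. The starting levels were far apart and the final levels were close, with a medium difference of 5.52 in +E+N and 0.61 in −E−N (adjusted p = 0.182). Ntn1, which encodes the guidance cue netrin 1, moved apart instead. It fell from 15.8 and 20.2 to 2.87 and 3.73 CPM in FCS/LIF and rose from 48.5, 26.2 and 45.1 to 113, 92.6 and 56.3 in 2i/LIF, so that a medium difference of −1.15 became −4.72. Pax6, a neural and eye factor, had 8.79 and 8.67 CPM before and 3.65 and 3.46 after in FCS/LIF, and 0.578, 1.30 and 1.25 before and 2.76, 4.42 and 4.74 after in 2i/LIF. Apol6, of the apolipoprotein L family, had responses of −1.85 ± 0.41 in FCS/LIF and 1.78 ± 0.24 in 2i/LIF, and the formin gene Fhod3 of −1.19 ± 0.29 and 1.47 ± 0.24.

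**Figure D2:**
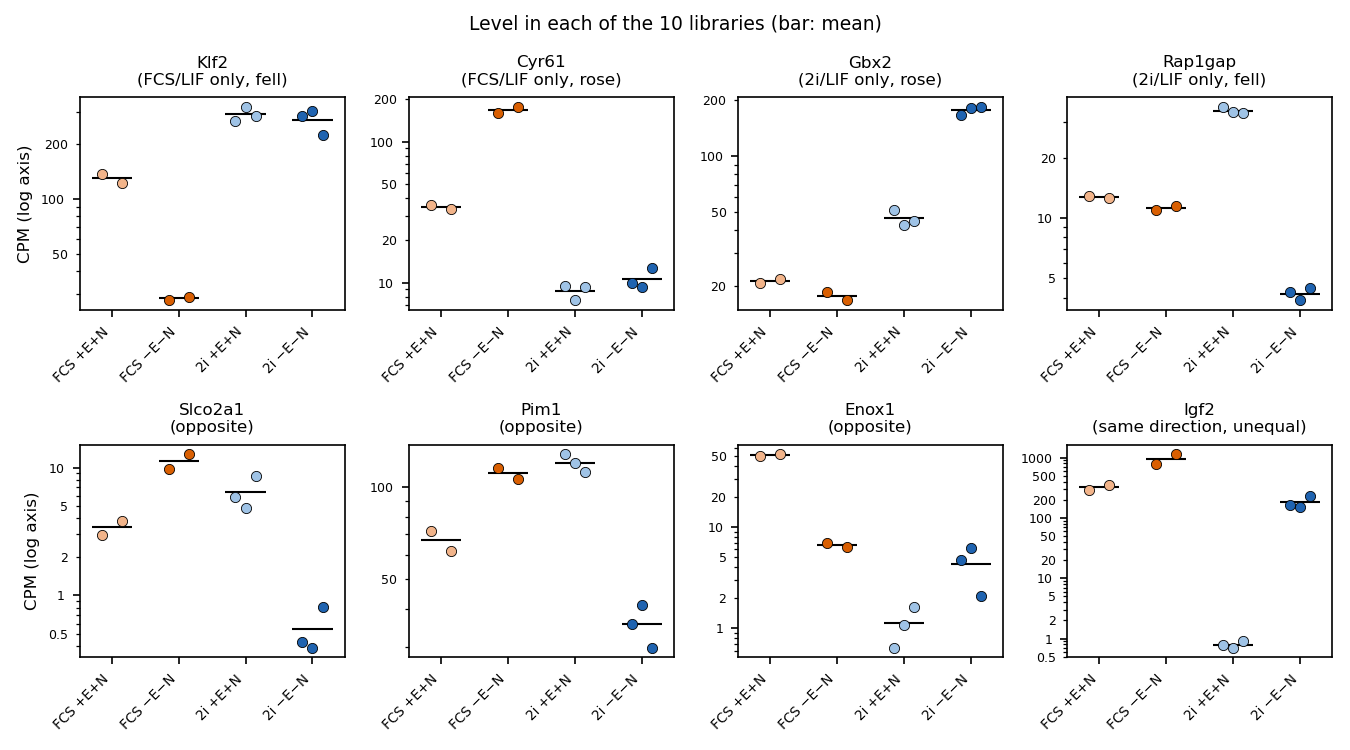
Level of 8 genes in each of the 10 libraries, in CPM on a log axis, with a bar at the group mean. Klf2 and Cyr61 change between the FCS/LIF groups alone, Gbx2 and Rap1gap between the 2i/LIF groups alone, Slco2a1, Pim1 and Enox1 move in opposite directions, and Igf2 rises in both media from 289.8 and 354 CPM in FCS/LIF and from under 1 CPM in 2i/LIF.

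Of the 140 genes that moved in the same direction by unequal amounts, 73 rose by more in 2i/LIF, 37 fell by more in 2i/LIF, 25 fell by more in FCS/LIF and 5 rose by more in FCS/LIF. Igf2, the imprinted growth factor gene (chr7:142650766-142666816), had 0.771, 0.706 and 0.906 CPM in 2i/LIF +E+N and 161, 151 and 233 in −E−N. In FCS/LIF it rose from 289.8 and 354 to 771 and 1132 CPM, and the difference was −6.26 ± 0.39 (edgeR adjusted p = 5.46e-08). Gcm1, a trophoblast factor, had 1 or 2 counts in each 2i/LIF +E+N library and 11.5, 9.82 and 16.6 CPM in −E−N, which is at least 122-fold higher when the group is set to 3 counts a library. Car4, a carbonic anhydrase gene, had no count in 2i/LIF +E+N and was at least 21.00-fold higher in −E−N by the same bound. In FCS/LIF, Gcm1 went from 2.12 and 2.39 to 6.78 and 7.44 CPM and Car4 from 13.2 and 14.2 to 36.9 and 48.2. With limma on log2(TPM + 1) the difference for Car4 was −0.074 and was not called (adjusted p = 0.881). These genes were thus low or absent in 2i/LIF before the loss and already present in FCS/LIF.

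Besides Esrrb, several naive genes were among those that fell by more in FCS/LIF. Zfp42 (chr8:43295063-43306980), the naive marker also called Rex1, started at a similar level in both media, 519 and 473 CPM in FCS/LIF and 457, 502 and 499 in 2i/LIF. It ended at 45.8 and 47.1 CPM in FCS/LIF and 217, 256 and 192 in 2i/LIF, a difference of −2.28 ± 0.17 (edgeR adjusted p = 1.60e-07). Klf4 fell from 64.4 and 66.4 to 6.89 and 7.44 CPM in FCS/LIF and from 100.5, 123 and 114 to 28.9, 34.3 and 34.97 in 2i/LIF. Tfcp2l1, which acts downstream of Stat3, fell from 123 and 138 to 26.7 and 26.7 CPM in FCS/LIF, and from 799, 721 and 767 to 497, 447 and 311 in 2i/LIF. Even after the loss, Tfcp2l1 in 2i/LIF stayed above its FCS/LIF +E+N level. The cation extruder gene Slc47a1 had responses of −3.10 ± 0.26 in FCS/LIF and −1.10 ± 0.20 in 2i/LIF, and Lrrc31 of −3.29 ± 0.43 and −1.02 ± 0.23, although the difference for Lrrc31 was not called without FCS/LIF −E−N replicate 1 (adjusted p = 0.0348) or FCS/LIF +E+N replicate 2 (0.0165). The promoter window of Zfp42 is shown because it was 1 of 2 among the 96 genes chosen by rule to hold TCAAGGCCA, 1 of the 2 forms (with TCAAGGTCA) searched as motifs of these receptors. It covers 250 bases before to 50 after the start of transcription in RefSeq (GRCm38.p6, chr8:43306960-43307259, minus strand), with the motif in capitals, 218 bases before the start:
Zfp42: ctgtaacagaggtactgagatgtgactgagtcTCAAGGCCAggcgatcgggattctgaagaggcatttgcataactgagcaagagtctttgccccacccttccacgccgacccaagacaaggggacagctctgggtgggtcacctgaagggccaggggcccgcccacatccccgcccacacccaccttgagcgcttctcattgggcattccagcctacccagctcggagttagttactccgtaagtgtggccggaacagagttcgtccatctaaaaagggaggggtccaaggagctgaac
The other was Khdc3, with the motif on the opposite strand 208 bases before the start. On either strand, a form of the motif was found in 93 of 11745 tested genes with a window (0.792%), in 1 of 221 genes that responded in FCS/LIF only, 2 of 196 in 2i/LIF only, 0 of 72 opposite and 3 of 103 in the same direction. A window was matched for 72.7% of the genes tested, under the 80% set for such a check, so these shares are void as a comparison. A match is no evidence of binding.

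The gene lists describe where such differences fell. Of all genes tested 13.2% had a called difference. In FCS/LIF 9.10% of all genes rose and 5.18% fell, and in 2i/LIF 10.2% rose and 9.79% fell. The Erk, Bmp, p53, germline, fibroblast and cholesterol lists below, with 10.0% to 16.7% of members called, were near that 13.2%. Of 20 naive pluripotency factors, 10 had a called difference (50.0%, against 13.2% of all genes), 9 of them negative and 1, Khdc3, positive. In FCS/LIF 15 fell and none rose, with a median response of −1.98, and in 2i/LIF 15 fell and 2 rose, with a median of −1.09. Fbxo15, Prdm14 and Mybl2 fell by more in FCS/LIF, like Zfp42, Klf4 and Tfcp2l1, with differences of −1.26 ± 0.12, −1.03 ± 0.22 and −0.72 ± 0.12. The call for Prdm14 was lost without FCS/LIF +E+N replicate 1 or FCS/LIF −E−N replicate 2 (highest adjusted p = 0.0411). Khdc3, a maternal gene of the subcortical complex, fell nearly to nothing in both media, from 18.1 and 15.4 to 0.289 and 0.470 CPM in FCS/LIF and from 48.3, 47.1 and 50.9 CPM to between 2 and 4 counts a library in 2i/LIF. Dppa3, a maternal factor of germ cells and early embryos, had 50.99 and 42.6 CPM before and 35.2 and 30.1 after in FCS/LIF, but rose in 2i/LIF from 15.1, 11.3 and 7.77 to 134, 110.4 and 122, a difference of −3.94 ± 0.47 (edgeR adjusted p = 2.03e-05). For other members no difference was called. Nr0b1, a corepressor and known Esrrb partner, had responses of −5.86 ± 0.41 in FCS/LIF and −6.65 ± 0.40 in 2i/LIF, and Tbx3 of −1.57 ± 0.18 and −1.56 ± 0.14, with 95% intervals of the difference from −0.58 to 2.16 and from −0.47 to 0.44. Without any 1 library, 8 to 11 naive factors had a called difference. Over these fits the share of all genes with one also moved. It was 7.57% to 8.48% without an FCS/LIF library and 10.4% to 13.5% without a 2i/LIF library. List counts from such fits, here and below, stand beside those shares.

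The core factors Sox2 and Nanog fell in both media and Pou5f1 (Oct4) fell in FCS/LIF, and none of the 3 had a called difference. Pou5f1 had responses of −0.63 ± 0.15 in FCS/LIF and −0.49 ± 0.12 in 2i/LIF, the latter under 1.5-fold. Those of Sox2 were −1.18 ± 0.16 and −0.90 ± 0.13, and those of Nanog −1.28 ± 0.12 and −1.38 ± 0.10. The 95% intervals of the difference ran from −0.55 to 0.25 for Pou5f1, −0.71 to 0.15 for Sox2 and −0.22 to 0.43 for Nanog. Nanog was lower in FCS/LIF in both states, with log2 medium differences of −1.81 before and −1.70 after. Lin28a, an RNA-binding protein that blocks let-7, was the 1 of 6 core genes with a called difference. It rose in 2i/LIF from between 44.5 and 75.5 CPM to 271, 281 and 264 and was at 490.5 and 395 before and 596 and 533 after in FCS/LIF.

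**Figure D3:**
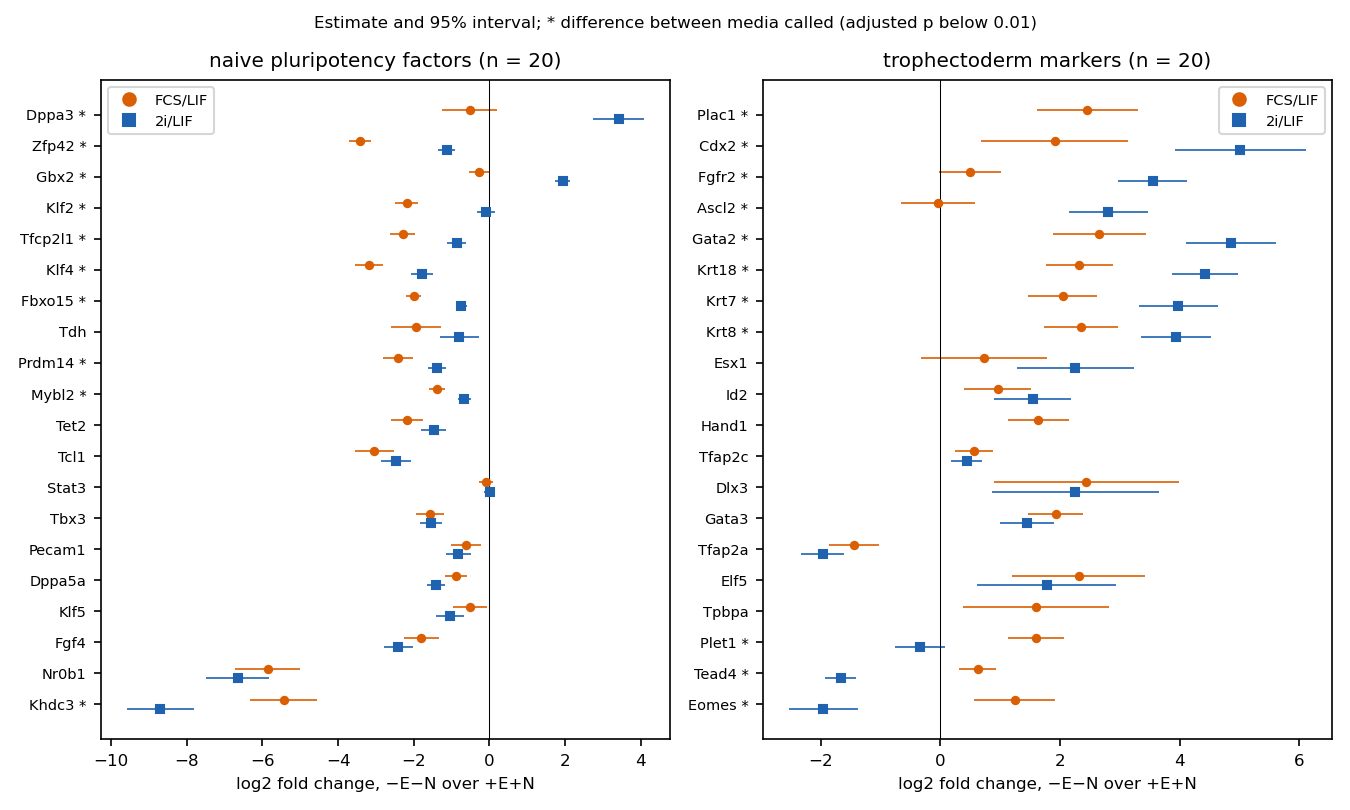
Log2 fold change of −E−N over +E+N with its 95% interval for 20 naive pluripotency factors and 20 trophectoderm markers, in FCS/LIF (circles) and 2i/LIF (squares), with an asterisk where the difference between media was called. Most naive factors with an asterisk lie further left in FCS/LIF, and most trophectoderm markers with an asterisk lie further right in 2i/LIF. No 2i/LIF value is drawn for Plac1, Hand1 and Tpbpa, which had at most 1 count in any 2i/LIF +E+N library, and the interval of Khdc3 rests on at most 4 counts a library in 2i/LIF −E−N.

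In the LIF and Stat3 pathway, 6 of 17 genes had a called difference (35.3%), 3 in each direction. The difference was negative for Gbx2, Klf4 and Tfcp2l1, and positive for Pim1, Icam1 and Zfp36. Zfp36, which destabilises mRNAs, rose in FCS/LIF (1.01 ± 0.14) with a 2i/LIF response of 0.028 ± 0.12, and Icam1, an adhesion molecule, fell in 2i/LIF (−1.48 ± 0.11) with an FCS/LIF response of −0.47 ± 0.13. The receptor gene Lifr fell in both (−1.45 ± 0.18 and −1.31 ± 0.15), and Stat3 had responses of −0.089 ± 0.086 and 0.0074 ± 0.070.

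Among 20 formative and primed epiblast genes, 6 had a called difference (30.0%). Lef1, a β-catenin partner that is also in the Wnt list, rose in 2i/LIF from 0.963, 0.595 and 0.662 to 25.1, 26.8 and 20.97 CPM and was at 27.6 and 26.6 and 33.7 and 28.4 in FCS/LIF. After the loss the media no longer had a called difference in Lef1 (0.36, adjusted p = 0.136), against 5.17 before. Otx2, a factor of the formative state, fell from 35.6 and 41.7 to 13.4 and 10.3 CPM in FCS/LIF, and in 2i/LIF from 1.86, 1.45 and 1.36 CPM to at most 2 counts a library, at least 15.3-fold lower. Igfbp2, which binds insulin-like growth factors, fell in 2i/LIF from 111, 138 and 169.7 to 39.4, 37.8 and 62.2 CPM while FCS/LIF had 214 and 225 before and 356 and 369 after. Fgf5, a standard formative marker, rose in FCS/LIF (2.02 ± 0.22) and had at most 1 count a library before and 7 after in 2i/LIF. Of 10 DNA methylation enzymes 3 had a called difference, and these were the de novo methyltransferases and their cofactor. Dnmt3a fell in FCS/LIF only (−0.86 ± 0.11 against 0.29 ± 0.093), Dnmt3b rose in 2i/LIF only (1.21 ± 0.10 against 0.32 ± 0.12), and the cofactor gene Dnmt3l rose in 2i/LIF from 20.4, 17.2 and 23.9 to 89.4, 71.98 and 49.5 CPM with an FCS/LIF response of 0.33 ± 0.21. All 3 were higher in FCS/LIF in both states, and by less after the loss than before it. The demethylating enzymes Tet1 and Tet2 fell in both media with no called difference.

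In the Nodal and activin pathway, 4 of 15 genes tested had a called difference (26.7%), 3 of them positive. The ligand gene Nodal was at a similar level in both media before the loss (62.5 and 66.5 CPM in FCS/LIF and 61.05, 64.04 and 63.4 in 2i/LIF). It was at 75.3 and 80.05 CPM in FCS/LIF −E−N and fell to 12.6, 7.56 and 6.22 in 2i/LIF, a difference of 3.10 ± 0.29 (edgeR adjusted p = 1.98e-06). Its coreceptor gene Tdgf1 (Cripto) likewise fell in 2i/LIF from 334, 516 and 534 to 85.8, 133 and 129 CPM with an FCS/LIF response of −0.13 ± 0.28. Without FCS/LIF +E+N replicate 1 the adjusted p of Tdgf1 was 0.0101. Lefty1, an inhibitor and target of Nodal, rose in 2i/LIF from 6.23, 6.54 and 4.36 to 68.05, 37.1 and 64.6 CPM with an FCS/LIF response of 0.82 ± 0.23 that was not called.

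In the Wnt and β-catenin list 7 of 26 genes had a called difference (26.9%), 5 of them negative. The count was 2 without FCS/LIF −E−N replicate 2, a fit in which 7.57% of all genes had a called difference. It was 3 without replicate 1 of FCS/LIF +E+N (8.19% of all genes) or −E−N (8.47%). Without replicate 2 of FCS/LIF +E+N (8.48%) or 2i/LIF +E+N (10.4%) it was 4. Notum, an extracellular inhibitor of Wnt ligands, fell in FCS/LIF from 34.5 and 31.6 to 2.31 and 3.24 CPM, while 2i/LIF had 34.8, 22.5 and 18.1 before and 28.5, 32.1 and 37.8 after, a difference of −3.95 ± 0.35 (edgeR adjusted p = 1.22e-06). Notum and Lef1 of this list had negative differences that were called in all 10 fits leaving out 1 library. Those of Lgr5, Wnt8a and Cdx2, also negative, rested on single libraries. The 2 positive ones were Apcdd1 (0.71 to 1.35 over these fits, called in 8) and Gsk3b (0.39 to 0.51, called in 5). T, Sp5 and Axin2 rose in both media with no called difference. T (Brachyury) had responses of 2.53 ± 0.64 and 2.43 ± 0.47, Sp5 of 3.19 ± 0.55 and 3.03 ± 0.34, and Axin2 of 1.28 ± 0.29 and 1.62 ± 0.22. The 95% intervals of the difference were wide, from −1.48 to 1.67 for T, −1.22 to 1.54 for Sp5 and −1.09 to 0.42 for Axin2. In the list 10 genes rose and 1 fell in FCS/LIF, against 9.10% and 5.18% of all genes. In 2i/LIF 15 rose and 1 fell, against 10.2% and 9.79%. In the Erk response list, 3 of 21 had a called difference (14.3%), among them Dusp5, a phosphatase of Erk, which rose in FCS/LIF only (1.63 ± 0.22 against 0.048 ± 0.20), and Spred2, with −0.43 ± 0.080 in FCS/LIF and 0.25 ± 0.066 in 2i/LIF. In the Bmp list 2 of 19 (10.5%) had one, Msx2 and Smad7, both positive. Without 2i/LIF −E−N replicate 3 the count was 5, in a fit that called 13.5% of all genes.

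Of 20 trophectoderm markers 11 had a called difference (55.0%), 8 of them negative. In FCS/LIF 12 trophectoderm markers rose and 1 fell, with a median response of 1.62, and in 2i/LIF 11 rose and 3 fell, with a median of 2.12 (2.25 with Plac1 at its bound and without Hand1 and Tpbpa, which had at most 5 counts in any 2i/LIF library). The summed level of the 20 genes went from 384 to 461 TPM up to 1471 to 2183 TPM in FCS/LIF, and from 73.5 to 85.9 TPM up to 299 to 483 TPM in 2i/LIF. No marker of the list was at 0 in all 10 libraries. Krt18, a keratin of simple epithelia, rose from 109 and 125 to 452 and 719 CPM in FCS/LIF and from 3.73, 4.24 and 5.64 to 83.4, 76.9 and 131 in 2i/LIF. Krt8 and Krt7 had differences of −1.59 ± 0.39 and −1.93 ± 0.42, and Gata2, a trophoblast factor, of −2.20 ± 0.50. Fgfr2, the Fgf4 receptor of trophoblast, rose in 2i/LIF from 0.707, 1.60 and 2.23 to 14.3, 15.02 and 23.2 CPM and had 38.4 and 52.1 before and 61.01 and 66.4 after in FCS/LIF. Gata3 rose in both (1.93 ± 0.22 and 1.45 ± 0.22) with no called difference, and Eomes and Tead4 moved in opposite directions. The number called was 6 without 2i/LIF +E+N replicate 3, FCS/LIF −E−N replicate 1 or FCS/LIF +E+N replicate 2, and each of these also ended the calls of Krt8, Krt7 and Gata2 (highest adjusted p = 0.0407, 0.016 and 0.0245). The calls of Krt8 and Gata2 were lost without FCS/LIF +E+N replicate 1 too, and that of Krt8 without 2i/LIF +E+N replicate 2 or 2i/LIF −E−N replicate 3. The part of a change in the mix of cell states in these bulk libraries was not tested, since fewer cells of a state and less RNA per cell cannot be told apart.

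In the neural list 5 of 11 tested genes had a called difference (45.5%). Besides Nes and Pax6, Tubb3, a neuronal tubulin, fell in 2i/LIF from 48.2, 28.6 and 30.8 to 6.77, 3.00 and 4.77 CPM and was at 106 and 100.2 and then 73.8 and 98.8 in FCS/LIF, while Sox11 rose in 2i/LIF from 1.19, 0.558 and 1.18 to 6.25, 7.14 and 8.62 CPM. The difference for Sox11 was not called with limma on log2(TPM + 1) (−0.23, adjusted p = 0.39) or log2(TPM + 0.1) (−1.54, adjusted p = 0.0102). The summed level of the neural list was 98.0 to 101 TPM before and 116 to 134 after in FCS/LIF, and 33.6 to 42.9 before and 16.8 to 20.2 after in 2i/LIF. Within the 2i/LIF sum, Tubb3 went from a mean of 24.95 to 3.43 TPM. By number, 1 neural marker rose and 1 fell in FCS/LIF, with a median response of 0.60. In 2i/LIF 4 rose and 2 fell, with a median of 1.38 (0.12 without 3 genes of at most 3 counts in any 2i/LIF +E+N library). Of 18 primitive endoderm markers 5 had a called difference (27.8%), with 2 left without FCS/LIF +E+N replicate 1 and 3 without FCS/LIF −E−N replicate 2. Lama1, a laminin chain gene, fell from 90.7 and 108 to 48.99 and 53.02 CPM in FCS/LIF and from 39.9, 49.4 and 43.6 to 1.25, 1.13 and 2.17 in 2i/LIF. Sox17 and Gata4 moved apart in 2i/LIF (2.13 ± 0.51 and −1.53 ± 0.34), with no called difference between media for either. Of 15 mesoderm and streak genes, 5 had a called difference (33.3%). The count was 1 without FCS/LIF −E−N replicate 1, 2 without FCS/LIF +E+N replicate 1 or FCS/LIF −E−N replicate 2, and 3 without replicate 2 of any other group or 2i/LIF +E+N replicate 3. In the adhesion list 9 of 19 had one (47.4%), and 5 without FCS/LIF +E+N replicate 1, FCS/LIF +E+N replicate 2 or FCS/LIF −E−N replicate 2. Zeb2, a repressor of E-cadherin, rose in 2i/LIF (3.46 ± 0.31) with 1.03 ± 0.31 in FCS/LIF. The difference for Zeb2 was not called with limma on log2(TPM + 1) (−0.15, adjusted p = 0.535) or log2(TPM + 0.1) (−0.75, adjusted p = 0.194). Of 10 fibroblast markers tested, Col1a1 alone had a called difference (10.0%). The count was 0 without any 1 FCS/LIF library, 2i/LIF −E−N replicate 1 or 2i/LIF +E+N replicate 3, and 2 without replicate 2 or 3 of 2i/LIF −E−N. The summed level of the fibroblast markers went from 70.0 to 75.5 TPM up to 446 to 471 in FCS/LIF and from 38.7 to 43.0 up to 67.0 to 92.5 in 2i/LIF.

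**Figure D4:**
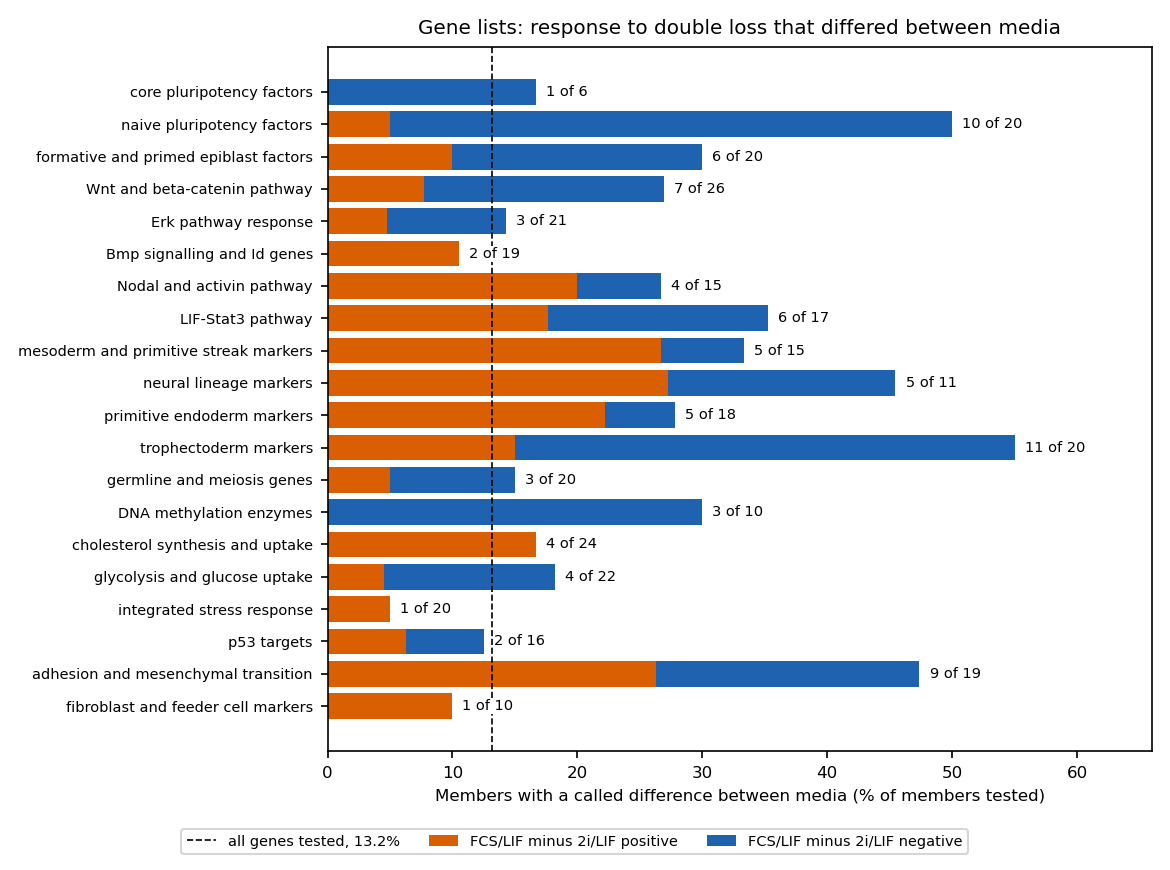
Share of the tested members of each of 20 gene lists with a called difference between media, in percent, split by the sign of FCS/LIF minus 2i/LIF, with the counts beside the bars. The dashed line marks the 13.2% of all genes tested. With all 10 libraries, 11 of 20 trophectoderm markers, 10 of 20 naive factors and 1 of 20 genes of the integrated stress response had one. These counts change when single libraries are left out, as does the share of all genes.

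In cholesterol synthesis and uptake, 4 of 24 genes had a called difference (16.7%), all positive. Srebf2, the regulator of the pathway, had 0.090 ± 0.073 in FCS/LIF and −0.47 ± 0.060 in 2i/LIF, under 1.5-fold in both. The count was 1 without FCS/LIF −E−N replicate 2, and without FCS/LIF +E+N replicate 2 the count was 2. In glycolysis 4 of 22 had a called difference (18.2%). Hk1, a hexokinase gene, fell in 2i/LIF from 153, 141 and 134 to 53.8, 51.1 and 45.5 CPM with −0.44 ± 0.11 in FCS/LIF, and Pfkm and Eno1 had opposite signs in the media (−0.44 ± 0.083 and 0.31 ± 0.068 for Pfkm, −0.17 ± 0.10 and 0.56 ± 0.079 for Eno1) but under 1.5-fold in each. In the integrated stress response list, 7 of 20 genes were down in FCS/LIF, against 5.18% of all genes. In 2i/LIF 11 were down and 1 up, against 9.79% and 10.2%. Cth, an enzyme of cysteine synthesis, was the 1 gene of the list with a called difference (−0.45 ± 0.13 in FCS/LIF and −1.90 ± 0.11 in 2i/LIF), or 1 of 2 without 2i/LIF −E−N replicate 3. Of 16 p53 targets 7 rose in FCS/LIF and 4 in 2i/LIF, against 9.10% and 10.2% of all genes. A called difference was found for 2 of them (12.5%, against 13.2% of all genes). Mdm2, the inhibitor of p53, rose in FCS/LIF only (0.65 ± 0.12 against −0.28 ± 0.10). Phlda3 rose by more in 2i/LIF (2.32 ± 0.17 against 0.97 ± 0.20), which was not called without FCS/LIF +E+N replicate 2 (adjusted p = 0.0151). Of 20 germline genes 3 had a called difference (15%), among them Rpl10l, a testis copy of a ribosomal protein gene whose reads may be shared with Rpl10, with −1.25 ± 0.10 in FCS/LIF and −0.092 ± 0.082 in 2i/LIF. The germline count was 1 without any 1 FCS/LIF library, replicate 2 or 3 of 2i/LIF −E−N, or 2i/LIF +E+N replicate 3.

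For 17 further genes of the lists, the call of the difference depended on single libraries, as shown by 10 fits that each left out 1 library. The largest p of the 10 fits is given as the highest adjusted p (edgeR). Cdx2, the trophoblast and hindgut factor (difference −3.10, highest adjusted p = 0.0447), and the germ cell gene Dazl (1.47, 0.0485) were called only without 2i/LIF +E+N replicate 1. The Vegf receptor gene Kdr (2.84, 0.0397) was called only without FCS/LIF +E+N replicate 2 or 2i/LIF −E−N replicate 1, and Tdrd1 (−1.39, 0.0259) only without 2i/LIF −E−N replicate 1 or 2i/LIF +E+N replicate 2. Foxa2 (−2.15, 0.042) and Col1a1 (2.91, 0.0332) were called only without 2i/LIF +E+N replicate 1 or 2 or 2i/LIF −E−N replicate 3. The R-spondin receptor gene Lgr5 (highest adjusted p = 0.232) was called only without replicate 1 of FCS/LIF +E+N or of either 2i/LIF group. Pmvk, of cholesterol synthesis (0.77, 0.0467), was called only without FCS/LIF +E+N replicate 1, 2i/LIF +E+N replicate 2 or 2i/LIF −E−N replicate 3, and Pkm, of glycolysis (−0.44, 0.0453), only without FCS/LIF −E−N replicate 1, 2i/LIF −E−N replicate 1 or 2i/LIF +E+N replicate 2. The calls of the Wnt ligand gene Wnt8a (−4.17, 0.019) and of Fgf8 (3.35, 0.0222) were lost without any 1 FCS/LIF library, and further without 2i/LIF +E+N replicate 1 or 2 for Wnt8a and replicate 3 for Fgf8. That of Khdc3 (highest adjusted p = 0.0689) was lost without FCS/LIF +E+N replicate 2 or any −E−N library. That of Plac1 (0.0183) was lost without FCS/LIF −E−N replicate 1, FCS/LIF +E+N replicate 2 or any 2i/LIF +E+N library, and that of the Erk phosphatase gene Dusp4 (−1.72, 0.0194) without either FCS/LIF −E−N library, FCS/LIF +E+N replicate 2 or 2i/LIF +E+N replicate 1 or 3. Twist1 (1.71, 0.0213) lost its call without FCS/LIF +E+N replicate 1 or either FCS/LIF −E−N library. Tm7sf2 (0.58, 0.0427) lost it without replicate 2 of either FCS/LIF group and Dab2 (2.25, 0.0107) without FCS/LIF +E+N replicate 1. Cdx2 had 1.52 and 2.06 CPM before and 5.89 and 7.64 after in FCS/LIF, and 2.60, 0.669 and 1.04 before and 40.9, 47.98 and 53.3 after in 2i/LIF. Plac1 and Lgr5 had at most 1 and 3 counts in any 2i/LIF +E+N library and were at least 33.3-fold and 39.3-fold higher in 2i/LIF −E−N. The difference kept its sign for all of these genes in all 10 fits.

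Libraries that lacked 1 receptor were measured as well. They share the +E+N controls with the −E−N comparison, so their values are given side by side only. Klf2 was at 67.02 and 60.1 CPM without Esrrb and 92.8 and 93.1 without Nr5a2 in FCS/LIF, between its +E+N and −E−N levels. Gbx2 in 2i/LIF was at 71.05, 62.6 and 86.5 CPM without Esrrb and 83.04, 83.96 and 89.7 without Nr5a2, also in between. Igf2 in 2i/LIF was at 0.858, 1.04 and 1.35 CPM without Esrrb but 73.1, 65.3 and 54.5 without Nr5a2, and Klhl13 at 55.3, 56.6 and 52.9 and 187, 142 and 139, so that both were higher in the 2 genotypes made from the NrKO line. Ntn1 in FCS/LIF was at 2.93 and 3.88 CPM without Esrrb and 15.7 and 17.6 without Nr5a2, and in 2i/LIF at 19.6, 7.27 and 13.99 and 80.6, 75.7 and 91.6.

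The classes were also counted by the levels from which they started. Before the loss 5607 of all genes tested differed between media (34.7%), and after it 5655 did (35.0%). These share no library, and 3760 genes were in both lists (67.1% and 66.5% of them), 3651 with the same sign. Of the 83 genes that rose in 2i/LIF only, 47 were higher in FCS/LIF before the loss and 6 lower, and after it 17 were higher and 20 lower. Of the 156 that fell in 2i/LIF only, 94 were higher in 2i/LIF before and 15 after. Of the 172 that rose in FCS/LIF only, 51 were higher in 2i/LIF and 26 in FCS/LIF before, against 11 and 101 after. These counts rest on the libraries that set the classes and are given as a description. X-linked genes made up 3.75% of all genes tested, 9 of the 83 that rose in 2i/LIF only (10.8%) and 12 of the 78 that rose in both media by unequal amounts (15.4%), among them Rhox6, Rhox9, Nrk and Amot. They were 6.05% of all genes that rose in FCS/LIF, 7.40% of all that rose in 2i/LIF and 3.49% of those that rose in FCS/LIF only. Genes coding for proteins were 88.1% of those tested and 94.5% of those with a called difference.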

How the data were processed

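RNA of EKOiE and EKOiE NrKO cells was sequenced for the authors by a service provider as stranded, poly-A selected 150 bp paired ends, mapped by the authors to mm10 with STAR and quantified with RSEM. The deposited tables hold, per gene and library, RSEM expected counts (deposited as whole numbers) and TPM, a length-corrected abundance, as the authors computed it. Versions and the annotation release are not given in the sources used here, nor is the strand setting of the counting. Gene coordinates come from the GENCODE annotation of GRCm38 and promoter windows from RefSeq.

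From 54146 gene rows (92 spike-in rows, all 0, were left out), 16147 genes with at least 20 counts in every replicate of at least 1 group were tested. All 20 RNA-seq libraries were fitted as 8 groups with edgeR 4.0.16 (R 4.3.3; TMM, quasi-likelihood test, 12 residual degrees of freedom), so that the difference between media is the exact difference of both responses, with Benjamini-Hochberg adjustment over all genes tested. The study's own fold limit of 1.5 and adjusted p of 0.01 were kept. Intervals are 95% intervals from the fit. A group with at most 3 counts in each library was set to 3 counts a library, and folds against it are bounds. Totals of 27330885 to 42980094 counts a library make counting error small beside the spread among libraries for all but the low genes.

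DESeq2 1.42.0 (Wald test, or size factors in edgeR), other count minimums, the 10 libraries alone, a replicate block, limma 3.58.1 on TPM (log2, pseudocounts 1 and 0.1), other thresholds and leaving out each library were tried as alternatives. The test was also run on counts simulated from the levels and spread of the main fit. It called 10 of 50 genes with a simulated 1.5-fold difference between media and 29 of 50 at 2-fold. At 4-fold it called 44 of 50, at 8-fold 50 of 50, and 1 of 15701 unchanged genes.

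The genes described by rule are the targeted genes, 3 core factors, in each of 20 lists up to 4 members of largest called difference, and in each class and direction the 5 genes of largest difference (3 for unequal responses in the same direction) among annotated genes of 100 or more counts on average and no overlap between the groups that responded. Further list members were named with their values in view. The members and lists were chosen with earlier results of these data known. Libraries lacking 1 receptor entered the fit and are given as values only, and ChIP samples were not used here. Some genes are not reported here.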

Additional observations from a re-analysis of the deposited data

Results flagged for a closer look

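The contrast itself tests whether the −E−N response differs between media, and 2136 genes passed it. Values below are FCS/LIF minus 2i/LIF on the log2 scale from edgeR's quasi-likelihood test, and each was called. Among the targeted genes Esrrb differed (−1.39), with a larger fall in FCS/LIF. Among the genes that rose in FCS/LIF and fell in 2i/LIF, the differences were 5.27 for Slco2a1, 4.14 for Caskin1, 3.79 for Spats2l, 3.56 for Lcp1, 3.30 for Hbegf, 3.20 for Eomes, 2.47 for Pim1, 2.37 for Sparc and 2.12 for Itga5. Among those that fell in FCS/LIF and rose in 2i/LIF they were −4.92 for Enox1, −3.63 for Apol6, −3.57 for Ntn1, −3.23 for Pax6 and −2.66 for Fhod3. No group had 4 or more libraries, so no library was tested as an outlier.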

How the results depend on the processing

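The count of called differences was 2876 with DESeq2, 2122 with DESeq2 size factors, 2973 with at least 1 count, 2077 with edgeR's own filter, 2069 with at least 100 counts, 1603 with the 10 libraries alone, 2225 and 1796 with limma on log2(TPM + 1) and log2(TPM + 0.1), and 1741 when the difference had to exceed 1.5-fold. At an adjusted p below 0.05 it was 3821, with 187 opposite genes and 304 in the same direction. With at least 1 count there were 361 genes in 2i/LIF only, 169 opposite and 346 in the same direction. Limma on log2(TPM + 1) gave 555 genes in FCS/LIF only, and on log2(TPM + 0.1) 142 in 2i/LIF only and 87 in the same direction. DESeq2 gave 210 in the same direction. With no fold limit on the responses 4957 genes responded in 2i/LIF, 460 in FCS/LIF only, 426 in 2i/LIF only and 205 in opposite directions. Leaving out each library in turn gave 1223 to 2185 called differences, 1228 to 2451 responses in FCS/LIF, 2828 to 3172 in 2i/LIF, 4562 to 5698 medium differences in +E+N and 4737 to 5732 in −E−N. By class it gave 163 to 286 genes in FCS/LIF only, 122 to 246 in 2i/LIF only, 46 to 112 opposite and 65 to 151 in the same direction. The counts of the gene lists without each library were added after seeing the data.

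Replicate numbers were shared between groups of a medium, and whether they mark pairs was not settled. Deviations of same-numbered libraries correlated by 0.116 in FCS/LIF and by 0.378, −0.014 and 0.355 in 2i/LIF. For libraries of different numbers the values were −0.116 in FCS/LIF and −0.404 to 0.161 in 2i/LIF. Deviations were taken from the mean of each group. With 2 libraries a group in FCS/LIF, −0.116 therefore follows from 0.116 and is no separate comparison. The main fit used no pairing. With a replicate block within each medium 3703 differences were called, with 486 genes in FCS/LIF only, 453 in 2i/LIF only, 180 opposite and 328 in the same direction.

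Of the 96 genes chosen by rule, the call and sign of the difference held for all 96 under DESeq2 and under its size factors, for 84 with the 10 libraries alone, and for 78 and 80 under limma on log2(TPM + 1) and log2(TPM + 0.1). Among genes that kept the call without each single library, limma on log2(TPM + 1) also lost those of Klf4 (−1.01, adjusted p = 0.0115), Dnmt3a (−1.08, 0.0122), Spred2 (−0.53, 0.0234), Eno1 (−0.59, 0.0112) and Lrp8os2 (−1.47, 0.0131), all but Klf4 also on log2(TPM + 0.1), where Otx2 (1.67, 0.0282) was lost too. Of the genes whose call already depended on single libraries, log2(TPM + 1) lost Lrrc31 (−0.27, adjusted p = 0.425), Dusp4 (−0.19, 0.642), Kdr (0.29, 0.0884) and Pkm (−0.31, 0.0957), and log2(TPM + 0.1) lost Dusp4, Kdr, Pkm, Dazl, Wnt8a, Phlda3 and Tdrd1 (−0.55, 0.228). The sign turned on log2(TPM + 1) for Otx2 (−0.45), Tdrd1 (0.25), Plac1 (0.10) and Pou5f1 (0.0041), and on log2(TPM + 0.1) for Pou5f1 (0.0041). Nanog turned to −0.042 without FCS/LIF +E+N replicate 2 and −0.076 without FCS/LIF −E−N replicate 2. The difference was not called for Pou5f1 or Nanog, and the causes of these shifts were not tested. Limits are the 2 libraries a group in FCS/LIF, medium and culture that cannot be told apart, and folds from groups with few counts. A further limit is that the unequal Esrrb transcript counts do not measure the remaining receptor.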
